A study of Mus musculus with 6 samples.

Results

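The C-type lectin genes named Clec followed by a digit were followed in bulk RNA-seq of mouse lung. Members were taken by name: 25 of the 21900 genes in the deposited table carry such a symbol. C-type lectins share a fold that in many of them binds sugars in the presence of calcium, and in others binds lipids or proteins. On myeloid cells they act as pattern receptors for fungi, mycobacteria and dying cells. Activating receptors signal through an ITAM, a tyrosine motif carried by the receptor itself or by the adaptors Fcer1g and Tyrobp, to the kinase Syk and the adaptor Card9. Inhibitory receptors carry an ITIM and recruit phosphatases such as Ptpn6. In lung, other members sit on endothelium and platelets, or are secreted into the matrix.

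The libraries came from whole lungs of mice of Cyp1b1 KO genotype (3 libraries) and of Wild Type genotype (3 libraries). All 6 had received a high fat diet, called a western diet in the series title, for 10 weeks, so no library has another diet, and each genotype holds 1 male and 2 females. The sources used here do not give strain, age or how the knockout was made. They do not state that each library is a separate animal, so the p-values reflect only how far these libraries spread, which may be technical. Replicate 3 is the male of each label.

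Cyp1b1, the targeted gene, was at 51.2, 56.1 and 48.4 CPM (counts per 1000000 reads assigned to genes) in the libraries labelled knockout, against 12.5, 19.04 and 18.5 CPM in those labelled wild type. It was thus higher under the knockout label in every library (exact two-sided permutation p = 0.1, the smallest that 3 against 3 allows), which goes against that label, and the groups are called by their labels throughout. Depth was estimated at 20200000 to 27600000 assigned reads per library, where 3 reads correspond to 0.109 to 0.148 CPM. The labelled tissue was borne out by alveolar type 2 markers (4 genes), which were high in every library. They summed to 11314 CPM in the labelled-knockout male and 12532 CPM in the labelled-wild-type male, below the females at 15391.5 to 16710 CPM. The male libraries stood apart for some marker lists and not for others. Neutrophil markers (10 genes) summed to 6247 CPM in the labelled-knockout male, 326 CPM in the labelled-wild-type male and 173 to 244 CPM in the 4 females. Alveolar macrophage markers (7 genes) summed to 108.8 and 119.2 CPM in these males and 94.9 to 119.7 CPM in the females. In bulk tissue, fewer cells of a type and less RNA per cell cannot be told apart.

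Levels can be compared between genes only per length, here as CPM per kb of exon in the GENCODE M21 annotation. On that scale Clec3b (tetranectin, a secreted plasminogen-binding protein) averaged 80.1 ± 29.3 CPM per kb (SD, n = 6 libraries) and Clec14a, an endothelial surface glycoprotein, 74.5 ± 13.1. Clec2d (Clr-b, a ligand of the inhibitory NK cell receptor Klrb1b) averaged 61.6 ± 24.5 CPM per kb, and Clec1a (MelLec, a receptor for fungal melanin on endothelium) 26.9 ± 6.02. The myeloid receptors lay below these. Clec7a (Dectin-1, the receptor for beta-glucan) averaged 18.7 ± 17.3 CPM per kb and Clec9a (DNGR-1, the dendritic cell receptor for actin exposed by dead cells) 13.4 ± 2.78. Clec5a, which signals through Tyrobp, averaged 1.75 ± 1.51 CPM per kb. Every gene's range over the libraries overlapped that of its neighbour in this order, so no adjacent pair was separated. Clec2l, Clec2e and Clec2g ended the order with 0.152, 0.104 and 0.0734 CPM per kb. Each of those 3 was without a read or under 3 reads in some libraries, averaged under 0.5 CPM and was not tested. The remaining 22 members were tested.

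**Figure D1:**
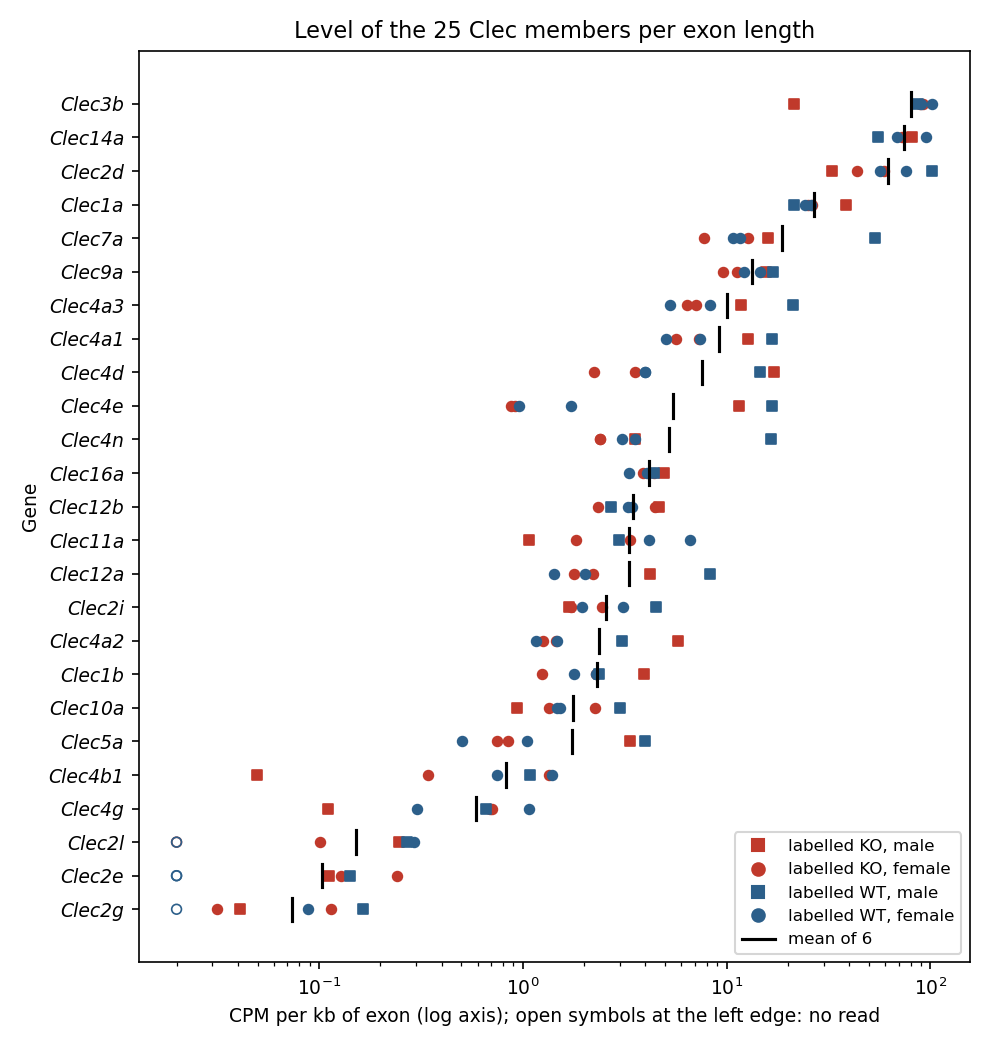
Level of each of the 25 Clec genes in CPM per kb of exon (log axis), with squares for males, circles for females, red for labelled knockout, blue for labelled wild type, and a bar at the mean of 6 libraries. Means run from 80.1 CPM per kb for Clec3b to 0.0734 for Clec2g, and the squares of Clec4e, Clec4d and Clec5a lie to the right of their circles.

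The range of each member was taken among the females and over all libraries. Between the highest and lowest of the 4 females, 19 of 22 tested members differed by under 1 log2 unit on the log2(CPM + 0.5) scale. Clec1a had the narrowest female range, 0.109 log2 units, and Clec11a (a secreted growth factor also called osteolectin) the widest, 1.77. Over all 6 libraries, 10 members ranged over more than 2 log2 units. A range over 6 libraries cannot be narrower than that of the 4 females among them. Neither count was set beside all genes. The labelled-wild-type male held the highest level for 11 of 22 members, where it held the highest level for 25.7% of all 17382 genes tested, and the lowest for 2 of 22, against 18% of all genes. The labelled-knockout male held the highest for 6 of 22 and the lowest for 7 of 22, against 17.6% and 37.5% of all genes.

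**Figure D2:**
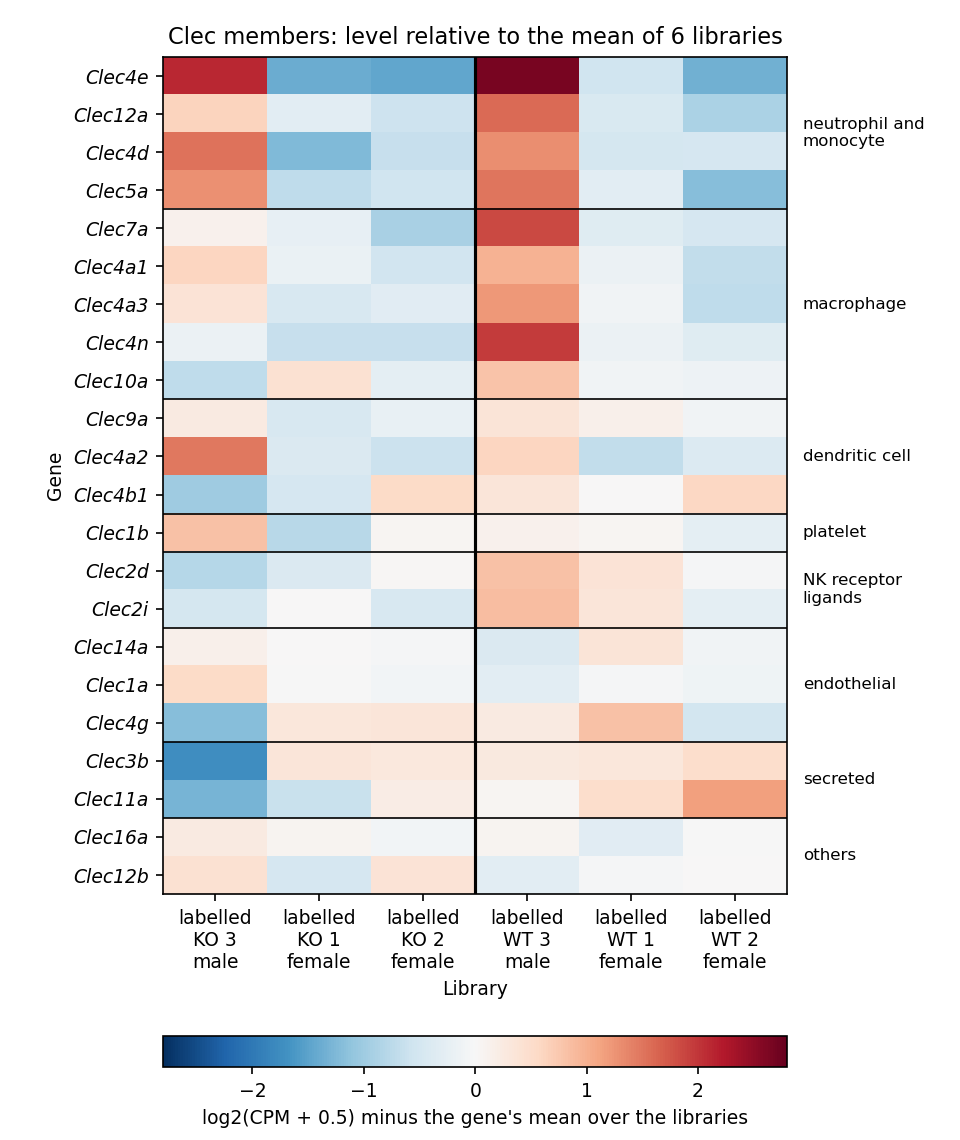
Level of the 22 tested Clec members in each library, as log2(CPM + 0.5) minus the gene's own mean over the 6 libraries (red above, blue below), grouped by lectin class. The 4 neutrophil and monocyte lectins are red in both males, most macrophage lectins are darkest in the labelled-wild-type male, and Clec3b is darkest blue in the labelled-knockout male, at 21.2 CPM.

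Between males and females 3 members passed the test, all of them neutrophil and monocyte lectins that were higher in males. These were Clec4e, Clec4d and Clec5a, or 3 of 22 members, where 0.627% of all genes were called higher in males, 0.207% lower and 0.834% in either direction. The classes were chosen with earlier results of these data known, so the shared class is not independent of the calls. Clec4e is Mincle, a receptor for mycobacterial cord factor and for Sap130 released by dying cells. It had 57.3 CPM in the labelled-knockout male and 83.2 CPM in the labelled-wild-type male, against 4.57 and 4.35 CPM in females labelled knockout and 8.54 and 4.75 CPM in females labelled wild type. The 2 sexes did not overlap, and the male mean was 12.7 times the female mean. The log2 difference, male minus female, was 3.57 (SE 0.24, limma adjusted p = 0.00103). It remained past the threshold in all 14 alternative analyses.

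Clec4d (MCL), which pairs with Mincle and Fcer1g at the cell surface, was at 27.2 CPM in the labelled-knockout male and 23.2 CPM in the labelled-wild-type male. In females it had 3.58 and 5.66 CPM under the knockout label and 6.36 and 6.38 CPM under the wild type label. Both males again lay above every female, with a log2 difference of 2.13 (SE 0.26, limma adjusted p = 0.0195). The call was lost without labelled knockout 2 and without labelled wild type 1, with a highest adjusted p of 0.0790 over 14 alternatives. Clec5a (MDL-1) had 12.9 CPM in the labelled-knockout male and 15.2 CPM in the labelled-wild-type male, against 2.87 and 3.26 CPM in females labelled knockout and 4.02 and 1.93 CPM in females labelled wild type. Its log2 difference was 2.08 (SE 0.31, limma adjusted p = 0.0322). Leaving out any single female ended that call, with a highest limma adjusted p of 0.146.

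Clec12a (MICL), an inhibitory receptor for uric acid crystals and the remaining member of this class, was at 23.4 CPM in the labelled-knockout male and 45.8 CPM in the labelled-wild-type male, against 12.2, 9.82, 11.1 and 7.86 CPM in the females. The sexes did not overlap, but the test was not passed (log2 difference 1.65, SE 0.29, limma adjusted p = 0.0514). It was passed with no filter, median centring, quantile normalization, robust moderation, no genotype term or without labelled knockout 3. The 4 lectins of this class summed to 121 CPM in the labelled-knockout male and 168 CPM in the labelled-wild-type male, and to between 20.9 and 30.1 CPM in the females. With 1 male per label, sex cannot be told apart from anything else that these 2 lungs share.

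**Figure D3:**
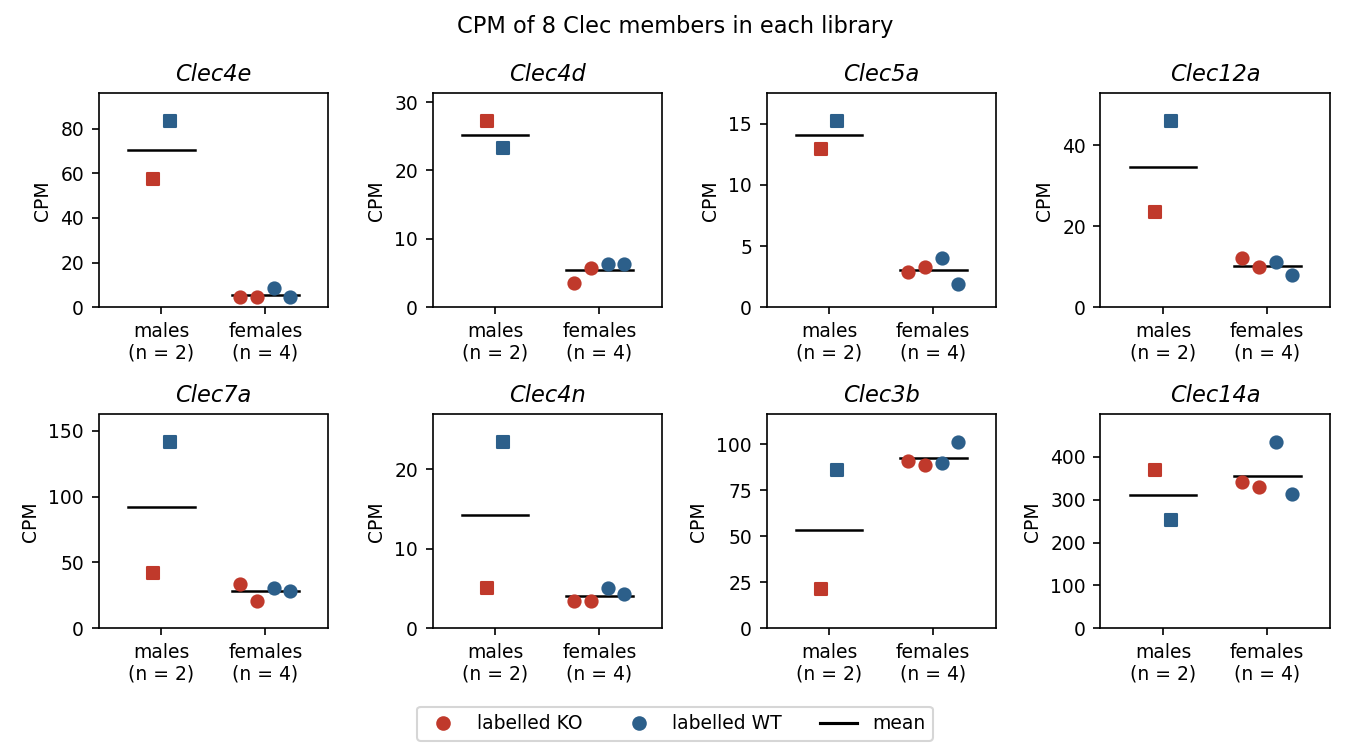
CPM of 8 Clec members in each library, males on the left and females on the right of each panel, red for labelled knockout and blue for labelled wild type, with a line at the mean. Clec4e, Clec4d, Clec5a and Clec12a are higher in both males, Clec7a and Clec4n stand out only in the labelled-wild-type male (141 and 23.4 CPM), and Clec3b is low only in the labelled-knockout male (21.2 CPM).

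The promoters of the 3 called genes are shown because these genes differed between the sexes in the same direction, with that of Clec14a as an endothelial member that did not pass. Each line gives the 250 bases before the annotated start, on the gene's strand, from RefSeq on GRCm38.p6, and 21 of the 25 members had an entry. Capitals mark matches to the motifs described below. The windows are chr6:123289872-123290121 (minus strand) for Clec4e, chr6:123261857-123262106 (plus) for Clec4d, chr6:40585806-40586055 (minus) for Clec5a and chr12:58269259-58269508 (minus) for Clec14a.
Clec4e: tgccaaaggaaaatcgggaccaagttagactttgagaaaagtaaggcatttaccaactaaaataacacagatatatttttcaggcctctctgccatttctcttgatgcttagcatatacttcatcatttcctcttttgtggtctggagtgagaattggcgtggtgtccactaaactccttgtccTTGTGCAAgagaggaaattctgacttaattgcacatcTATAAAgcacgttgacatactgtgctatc
Clec4d: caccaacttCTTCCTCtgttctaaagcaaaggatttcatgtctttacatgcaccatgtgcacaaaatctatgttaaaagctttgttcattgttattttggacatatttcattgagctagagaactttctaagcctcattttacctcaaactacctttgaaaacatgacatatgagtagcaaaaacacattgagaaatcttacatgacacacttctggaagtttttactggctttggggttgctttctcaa
Clec5a: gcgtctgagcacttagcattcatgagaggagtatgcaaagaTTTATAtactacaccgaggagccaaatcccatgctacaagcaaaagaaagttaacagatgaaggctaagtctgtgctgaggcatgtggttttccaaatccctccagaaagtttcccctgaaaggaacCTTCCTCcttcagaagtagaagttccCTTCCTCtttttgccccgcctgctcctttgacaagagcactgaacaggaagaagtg
Clec14a: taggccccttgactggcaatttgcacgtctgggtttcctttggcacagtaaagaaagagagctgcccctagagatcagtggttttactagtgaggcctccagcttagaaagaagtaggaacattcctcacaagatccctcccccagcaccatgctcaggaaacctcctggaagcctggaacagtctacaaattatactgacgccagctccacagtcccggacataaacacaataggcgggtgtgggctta

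Motifs were searched on both strands: GAGGAAG for PU.1 and related ETS factors, TTGCNNAA for C/EBP, TGANTCA for AP-1, TATAAA for a TATA box, and the NF-kB and interferon response elements. The Clec4e window held a C/EBP match on the opposite strand beginning 66 bases before the start and a TATA box on the gene's strand beginning 29 bases before it. Clec5a held 2 PU.1 matches, beginning 82 and 56 bases before the start, and a TATA box beginning 209 bases before it, all on the opposite strand. Clec4d held 1 PU.1 match on the opposite strand, beginning 241 bases before the start. The Clec14a window held no match to any of the motifs. No matches overlapped within these windows. Matches also lay in members not called for sex, as in Clec16a (PU.1 and C/EBP) and Clec11a (C/EBP). The 21 members with an entry had 24 windows, of which 5 held the PU.1 motif, 4 the C/EBP motif and 7 the TATA box. Of all 32851 promoter windows of this length, 10.6% held the PU.1 motif, 9.56% the C/EBP motif and 12.4% the TATA box. The NF-kB element occurred in 1.21%, the interferon element in 2.98% and the AP-1 motif in 6.75% of all windows, and in none of the 4 shown. A match is a description of the letters only.

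None of the 5 macrophage lectins passed the test for sex. Both males lay above all females for 4 of them, against 9.28% of all genes. At an unadjusted limma p under 0.05 there were 4, all higher in males, against 6.28% of all genes. All 5 were highest in the labelled-wild-type male, against 25.7% of all genes. Clec7a had 42.3 CPM in the labelled-knockout male and 141 CPM in the labelled-wild-type male, against 33.5, 20.5, 30.6 and 28.2 CPM in females (log2 difference 1.46, SE 0.34, limma adjusted p = 0.0995). Clec7a is annotated in GENCODE M21 as a polymorphic pseudogene, chromosome 6 from 129461591 to 129472779, minus strand. Clec4n (Dectin-2, a receptor for fungal mannans that signals through Fcer1g) had 5.03 CPM in the labelled-knockout male and 23.4 CPM in the labelled-wild-type male, against 3.41, 3.41, 5.02 and 4.35 CPM in females. For Clec4n the labelled-knockout male was thus level with the highest female (limma adjusted p = 0.149). Clec4a1 had 19.9 and 25.9 CPM in the males and 7.86 to 11.6 CPM in females, and Clec4a3 15.7 and 28.3 CPM in the males and 7.02 to 11.01 CPM in females (limma adjusted p = 0.0687 and 0.0943). Clec10a (MGL1, a galactose-type lectin) differed from these, at 2.73 CPM in the labelled-knockout male and 8.67 CPM in the labelled-wild-type male, on either side of the females at 3.88 to 6.59 CPM. Without labelled knockout 3, which leaves 1 male assumed to vary like the other libraries, Clec7a, Clec4n, Clec4a1 and Clec4a3 all passed, and Clec4a1 also did with median centring.

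Among dendritic cell lectins, Clec4a2 (DCIR, an inhibitory receptor with an ITIM) had 16.8 CPM in the labelled-knockout male and 9.01 CPM in the labelled-wild-type male, against 3.39 to 4.30 CPM in females. Its log2 difference of 1.55 did not pass (SE 0.28, limma adjusted p = 0.0534), and passed with median centring, robust moderation or without labelled wild type 3. Clec9a had 51.6 CPM in the labelled-knockout male and 55.4 CPM in the labelled-wild-type male, against 31.7, 37.1, 47.98 and 40.01 CPM in females, a smaller difference (0.46, SE 0.14, limma adjusted p = 0.181). Clec4b1 (DCAR, an activating receptor) lay near the limit of detection in the labelled-knockout male at 0.0391 CPM, under the 3-read level, against 0.854 CPM in the labelled-wild-type male and 0.269 to 1.09 CPM in females. The platelet receptor Clec1b (CLEC-2, which binds podoplanin) had 20.2 CPM in the labelled-knockout male and 12.1 CPM in the labelled-wild-type male, and 6.36 to 11.7 CPM in females. Platelet markers (7 genes) summed to 346 CPM in the labelled-knockout male and 59.3 CPM in the labelled-wild-type male, and to 33.3 to 59.2 CPM in females. In the interaction term 4 of the 7 passed as higher (Ppbp, Gp9, Itga2b and Pf4), against 0.702% of all genes. Itga2b lost its call without labelled knockout 1 or 2 and Pf4 without labelled knockout 1. The part of platelet markers in the Clec1b level was not tested.

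Over the family, both males lay above all 4 females for 12 of 22 tested members, where this held for 9.28% of all genes. Both males lay below all females for 1 member, Clec3b, against 14.7% of all genes. The median log2 difference of the 22 members was 0.37, beside -0.05 for all genes tested. At an unadjusted limma p under 0.05, 12 of 22 members differed, against 15.3% of all genes. Of these, 10 were higher and 2 lower in males, against 6.28% and 9% of all genes.

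Chromosome 6 holds 19 of the 25 members, most of them in 3 clusters. The Dectin-2 cluster, 368 kb from 122921848 to 123289870, holds 7 members (Clec4a1, Clec4a3, Clec4b1, Clec4a2, Clec4n, Clec4d and Clec4e) among 9 protein-coding genes, all of them Clec4 genes. Summed, its members had 142 CPM in the labelled-knockout male and 194 CPM in the labelled-wild-type male, against 35.8 to 46.5 CPM in females. Both males lay above all females for 6 of the 7, Clec4b1 being the exception. In the Dectin-1 cluster, 129342691 to 129472779, Clec12a, Clec1b, Clec9a and Clec7a had that order, while Clec1a and Clec12b did not. In the Clr cluster between them, 128887588 to 129186534, neither of the 2 tested members (Clec2d and Clec2i) had both males above all females. No test of location was run. Clec4 genes of the Dectin-2 cluster resemble one another in sequence and the counting method is not given, so reads of near-identical stretches may have been split between them. Clec1b and Clec9a overlap on the same strand, which makes the division of their shared reads uncertain.

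Of the marker lists without Clec genes, the monocyte list was also higher in both males. Neutrophil markers were high mostly in the labelled-knockout male, and alveolar macrophage markers overlapped between the sexes. Of 6 monocyte markers, 3 passed as higher in males and 0 as lower, against 0.627% and 0.207% of all genes. Ly6c2, the surface antigen of inflammatory monocytes, had 81.1 CPM in the labelled-knockout male and 55.99 CPM in the labelled-wild-type male, against 11.9 to 19.7 CPM in females (limma adjusted p = 0.0076). The coagulation factor gene F10 (27.8 and 27.1 CPM in the males, 4.79 to 7.33 CPM in females) and the chemokine receptor Ccr2 (107 and 113 CPM in the males, 34.3 to 46.6 CPM in females) passed as well (limma adjusted p = 0.0123 and 0.0146), and lost that call without labelled knockout 2 (0.0566 for each). The monocyte list summed to 524 CPM in the labelled-knockout male, 377 CPM in the labelled-wild-type male and 127 to 201.2 CPM in females. Of the 10 neutrophil markers 0 passed for sex with limma. All 10 were higher in males at an unadjusted limma p under 0.05, against 6.28% of all genes. For 8 both males lay above all females, against 9.28%. In the interaction term 8 of the 10 passed as higher, against 0.702% of all genes, among them Ngp, Mmp8, Camp and Retnlg. Of the neutrophil and monocyte lectins, Clec4e, Clec5a and Clec12a had higher levels in the labelled-wild-type male. Clec4d was higher in the labelled-knockout male (27.2 against 23.2 CPM). None of these 4 lectins passed the interaction term. No monocyte or neutrophil marker was without a read in any library. The part of either cell type in the lectin levels was not tested.

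**Figure D4:**
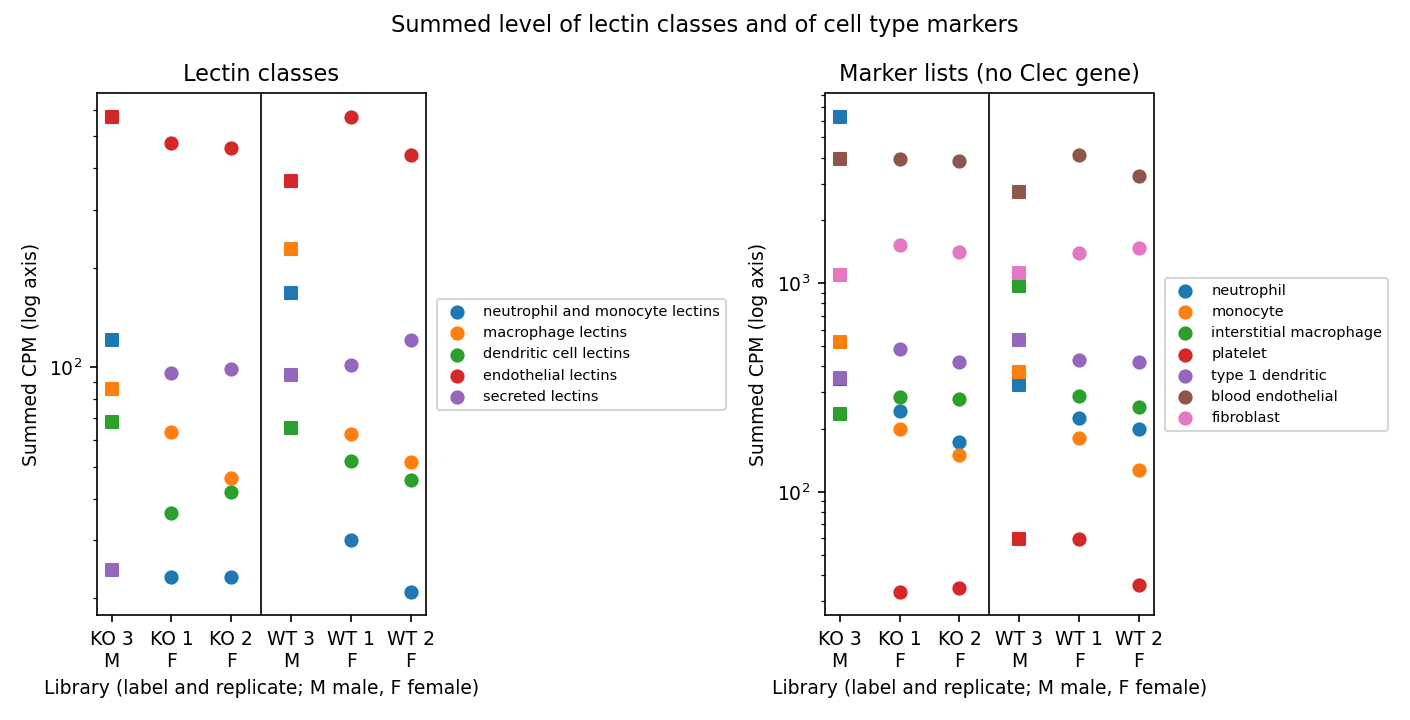
Summed CPM (log axis) of 5 lectin classes on the left and of 7 marker lists without Clec genes on the right, by library, with labelled knockout libraries left of labelled wild type and squares for males. Neutrophil and monocyte lectins reach 121 and 168 CPM in the males, monocyte markers 524 and 377 CPM, while neutrophil markers reach 6247 CPM in the labelled-knockout male and 326 CPM in the labelled-wild-type male. In the labelled-knockout male the platelet square (346 CPM) lies behind the type 1 dendritic square (353 CPM).

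Between the genotype labels no member of the family passed the test. With limma, 0 of 22 members were called, beside 0.0115% of all genes, and the smallest adjusted p among members was 0.775. At an unadjusted limma p under 0.05 there were 3 members, all lower in the libraries labelled knockout, against 5.13% of all genes in either direction, 1.8% higher and 3.33% lower. Those were Clec11a, Clec2d and Clec4n. Clec11a had 5.42, 10.04 and 3.20 CPM in labelled knockout libraries, against 12.4, 19.6 and 8.88 CPM in labelled wild type libraries, so that the labels overlapped in the middle of the range. The means were 6.22 ± 3.49 and 13.6 ± 5.49 CPM (SD, n = 3 each), with a log2 difference, labelled knockout minus labelled wild type, of -1.13 (SE 0.29, limma adjusted p = 0.775). Clec2d had 53.1, 71.7 and 39.8 CPM in labelled knockout libraries, against 91.9, 68.5 and 123.5 CPM in labelled wild type libraries, with a log2 difference of -0.78 (SE 0.26, limma adjusted p = 0.775). Without either male the difference was -0.36 for Clec2d and -0.41 for Clec4n, whose value with all libraries was -0.97. No member had all 3 libraries of either label above all 3 of the other. That happened in either direction for 3.63% (labelled knockout higher) and 5.89% (lower) of all genes. The median log2 difference of the members was -0.26, beside -0.06 for all genes.

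In females alone the labels lay close together for most members. The log2 difference between the female means of the labels was under 0.5 in size for 21 of 22 members and ranged from -1.03 for Clec11a to 0.21 for Clec12a, and limma on the 4 females called 0 members (adjusted p = 1 for each). Between the 2 males, 17 of 22 members differed by over 0.5 in size, from -2.11 for Clec4n to 0.87 for Clec4a2. A male value compares single libraries, while a female value compares means of 2, so the male values are less precise. Neither count was set beside all genes, so whether they are particular to the family is not known.

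**Figure D5:**
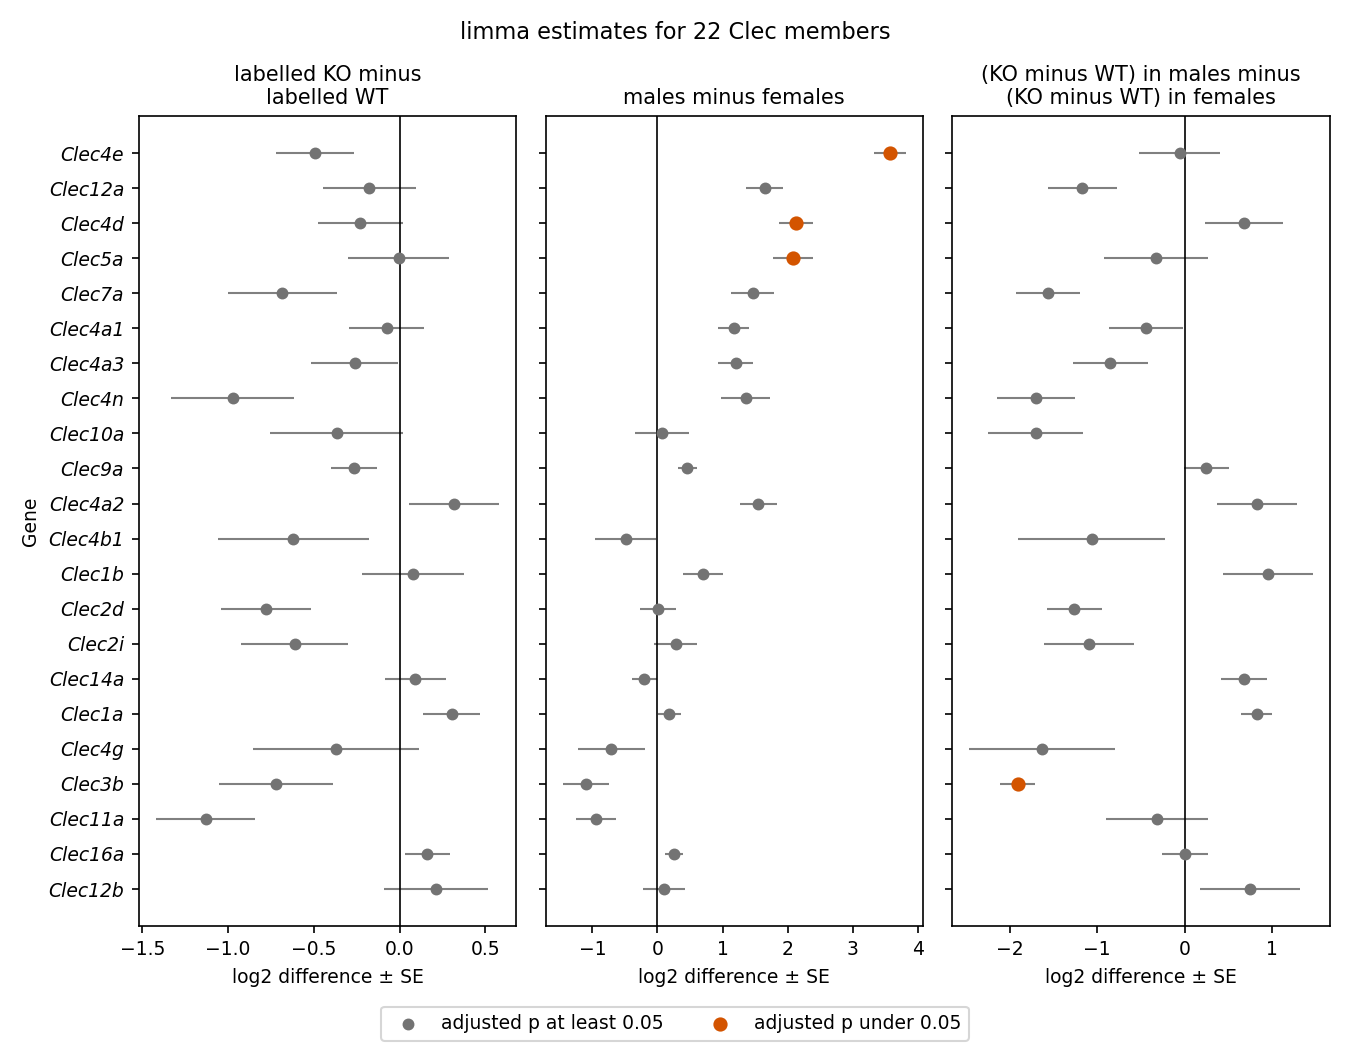
limma estimates on the log2(CPM + 0.5) scale for the 22 tested Clec members, with bars of 1 SE, for labelled knockout minus labelled wild type, for males minus females, and for the difference of the genotype contrast between males and females. Orange marks an adjusted p under 0.05: none in the first panel, Clec4e, Clec4d and Clec5a in the second, Clec3b in the third.

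The genotype difference in males departed from that in females for 1 member, Clec3b, which was called as lower, where 2.54% of all genes were called in either direction, 0.702% higher and 1.84% lower. At an unadjusted limma p under 0.05 there were 8 members, 2 higher and 6 lower, against 17.9%, 5.59% and 12.3% of all genes. Clec3b had 21.2 CPM in the labelled-knockout male and 85.9 CPM in the labelled-wild-type male, while females had 90.9 and 88.5 CPM under the knockout label and 89.4 and 100.9 CPM under the wild type label. The other 5 libraries thus lay within a narrow band and 1 library stood far below it. The interaction term was -1.91 (SE 0.20, limma adjusted p = 0.00266), in effect a statement about 1 library against the spread of females. Every call in the interaction term, those of marker and pathway genes included, compares 1 male of each label, assumes that males vary as the females do, and was lost with no filter on low values. It lay between -1.999 and -1.687 over 11 alternatives and passed in 10 of these, the exception being the fit with no filter (adjusted p = 0.0887). Fibroblast markers (6 genes), which mark stromal cells, summed to 1100 CPM in the labelled-knockout male and 1120 CPM in the labelled-wild-type male. In females they summed to 1390 to 1523 CPM, and 0 of the 6 passed the interaction test. Between the males, Pdgfra alone was higher under the knockout label (397 against 221 CPM), and the others were lower. The median log2 difference of the list, labelled-knockout male minus labelled-wild-type male, was -0.33. The part of fibroblast markers in the Clec3b level was not tested.

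Members of other classes had interaction estimates that did not pass. Clec1a had 200.5 CPM in the labelled-knockout male and 110.8 CPM in the labelled-wild-type male, against 125.9 to 135.8 CPM in females (0.82, SE 0.18, limma adjusted p = 0.0539). It passed with a pseudocount of 1, median centring, robust moderation or without labelled wild type 2. Clec14a ran the same way, at 370 CPM in the labelled-knockout male and 253 CPM in the labelled-wild-type male, with females at 314 to 434 CPM (0.68, SE 0.26, limma adjusted p = 0.220), and passed without labelled wild type 2 only (0.0316). Clec4g, the sinusoidal endothelial lectin LSECtin, was low at 0.273 and 1.62 CPM in these males and 0.742 to 2.64 CPM in females. Blood endothelial markers (8 genes) summed to 3942 CPM in the labelled-knockout male and 2747 CPM in the labelled-wild-type male, and to 3282 to 4138 CPM in females. Their part in the Clec1a and Clec14a levels was not tested.

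In the opposite direction lay Clec7a (-1.57, SE 0.37, limma adjusted p = 0.0712), Clec4n (-1.71, SE 0.44, limma adjusted p = 0.0941) and Clec2d (-1.26, SE 0.32, limma adjusted p = 0.0838), which did not pass either. Clec7a passed with robust moderation and without labelled knockout 2, and Clec2d without labelled wild type 1. Clec2i (Clr-g, a ligand of the NK cell receptor Klrb1f) had 5.22 CPM in the labelled-knockout male and 14.002 CPM in the labelled-wild-type male, with females at 5.37 to 9.67 CPM. Interstitial macrophage markers passed this test as lower for 4 of 6, and 0 as higher, against 1.84% and 0.702% of all genes. C1qa, a complement component made by tissue macrophages, had 13.9 CPM in the labelled-knockout male and 203 CPM in the labelled-wild-type male, against 28.05 to 36.4 CPM in females (-3.71, limma adjusted p = 0.000418). The list summed to 238 CPM in the labelled-knockout male, 975 CPM in the labelled-wild-type male and 256 to 287 CPM in females. The labelled-wild-type male thus stood alone at the top, as for Clec7a and Clec4n. In the labelled-knockout male the list lay below every female. There Clec7a (42.3 CPM) lay above the highest female (33.5 CPM), and Clec4n (5.03 CPM) was level with it (5.02 CPM). The part of this list in the Clec7a and Clec4n levels was not tested. Of 6 type 1 dendritic markers, 2 passed the interaction term as lower and 0 as higher, against 1.84% and 0.702% of all genes. The receptor Xcr1 had 1.25 CPM in the labelled-knockout male and 21.002 CPM in the labelled-wild-type male (-4.01, limma adjusted p = 0.00596). Naaa had 76.3 and 145 CPM (limma adjusted p = 0.0434) and passed in 5 of 11 alternatives. Cadm1, which did not pass, had 182 and 210 CPM. The list summed to 353 and 535 CPM in these males and 418 to 484 CPM in females. Clec9a, also a marker of those cells, was at 51.6 and 55.4 CPM.

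The members outside the classes above stayed within 1 log2 unit over the 6 libraries. Clec16a, which despite its name is an endosomal protein and not a surface lectin, had 36.7, 32.6 and 41.4 CPM in labelled knockout libraries, against 27.9, 34.2 and 36.9 CPM in labelled wild type libraries. Clec12b, an inhibitory receptor, had 3.81, 7.25 and 7.52 CPM in labelled knockout libraries, against 5.32, 5.54 and 4.40 CPM in labelled wild type libraries. The labels overlapped for both, and neither passed in any term.

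The machinery around the receptors was measured through lists. Of 20 signalling genes, 1 passed as higher in males and 0 as lower, against 0.627% and 0.207% of all genes. The gene was Inpp5d (SHIP), a phosphatase that restrains Syk signalling. It had 107.6 and 116.8 CPM in the males and 62.7 to 69.6 CPM in females (log2 difference 0.76, limma adjusted p = 0.0241). That call was lost when any single female was left out, with a highest adjusted p of 0.136. The median of the 20 was 0.60 for sex, beside -0.05 for all genes. In the interaction term 3 of the 20 passed as lower and 0 as higher, against 1.84% and 0.702% of all genes. The 3 were the kinase Prkcd, the Card9 partner Malt1 and the transcription factor Nfatc2, each highest in the labelled-wild-type male. There they had 175.5, 71.03 and 29.2 CPM, against 90.8, 34.9 and 8.03 CPM in the labelled-knockout male. Prkcd lost its call without labelled knockout 1 or 2, Malt1 without labelled knockout 1 or 2 or labelled wild type 2, and Nfatc2 without labelled knockout 1 or labelled wild type 1. Prkcd and Malt1 also lost it with median centring, and Malt1 and Nfatc2 with quantile normalization. Between genotype labels 0 of the 20 passed limma, and 0 had an unadjusted p under 0.05.

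Of 12 cytokine and mediator genes induced downstream, 10 were tested and 0 passed for genotype label or sex. Ptgs2 (cyclooxygenase 2) and the chemokine gene Ccl2 passed the interaction term as lower, against 1.84% of all genes. Ptgs2 had 45.03 CPM in the labelled-knockout male and 103 CPM in the labelled-wild-type male, against 70.3 to 100.1 CPM in females. Ccl2 was without a read in the labelled-knockout male and at 6.15 CPM in the labelled-wild-type male, and reached 0.712 CPM at most in females. Both calls were lost without labelled knockout 1 or 2, and with quantile normalization, and that of Ccl2 also without labelled wild type 2 or with a pseudocount of 0.1. Of 7 ligand and partner genes, 1 passed the interaction term as lower and 1 as higher, against 1.84% and 0.702% of all genes. Klrb1b, the NK cell receptor for Clec2d, had 5.38 CPM in the labelled-knockout male and 32.1 CPM in the labelled-wild-type male, against 7.91 to 10.9 CPM in females (-2.83, limma adjusted p = 0.00676). The higher partner gene was Anxa1, an annexin reported to bind Clec7a, at 408 CPM in the labelled-knockout male and 159 CPM in the labelled-wild-type male. Of 30 other C-type lectins tested, 0 passed for sex or genotype label with limma. For sex 12 had an unadjusted limma p under 0.05, against 15.3% of all genes, and for genotype label 6, against 5.13%. Directions were mixed: both males lay below all females for 8 and above for 5, against 14.7% and 9.28% of all genes. Their median log2 difference for sex was -0.23, against 0.37 for the Clec members. In the interaction term 1 of the 30 passed as higher and 1 as lower, against 0.702% and 1.84% of all genes. The higher was Cd93, an endothelial relative of Clec14a (823 CPM in the labelled-knockout male, 361 CPM in the labelled-wild-type male). The lower was the B cell lectin Cd72 (8.35 and 54.6 CPM). Cd93 lost its call without labelled knockout 1 or 2, and Cd72 with quantile normalization.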

How the data were processed

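The deposited table gives CPM per gene and library, made by the authors with Partek and TopHat2 on mm10, per the submitters' processing notes, which give no versions or roles. Annotation, filters and strand are not stated. Every deposited value carries an added 0.0001. Depth was read from the spacing of low CPM values; 82.3% to 83.5% of values worth up to 100 reads per library were whole multiples within 0.05, so whole reads could not be regained and a count test was not run.

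limma 3.58.1 (R 4.3.3, variance trend) was run on log2(CPM + 0.5) for 17382 genes averaging at least 0.5 CPM, with additive terms for label and for sex, and again with their interaction. Fold changes are on this scale, which understates changes of low genes. Tests were two-sided, with Benjamini-Hochberg adjustment over all genes tested and a threshold of 0.05. The 3-read level covers counting error only. Of the gene identifiers 99.8% were found in GENCODE M21, which uses the same build. Tables were handled with Python 3.11.15 and pandas 2.3.3.

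Members, classes and lists were chosen with earlier results of these data known, Clec4e among them. Values in every library, or in both males with the range of the females, were given for members past the test in any term and for up to 3 members of highest mean per class; up to 4 list genes past the test were named. Members named beyond that rule were chosen after their values were seen. Alternatives were pseudocounts, filters, centring, quantile normalization, robust moderation, other model terms, females alone and leaving out each library.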

Additional observations from a re-analysis of the deposited data

Results flagged for a closer look

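Clec3b was picked out because its genotype difference differed between males and females (limma interaction term -1.91). It rests on 1 library, the labelled-knockout male at 21.2 CPM. Clec4e in labelled wild type 1, at 8.54 CPM, lay far from the other 3 females (4.35 to 4.75 CPM). The 22 tested members were each examined this way among the 4 females, and chance marks about 1 in 20 such groups.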

How the results depend on the processing

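No paired analysis was possible because the labels give no replicate numbers shared between groups. Counts of Clec members by genotype label were 0 in all 15 alternatives. By sex, 3 members passed, against 6 with median centring, 5 with robust moderation, and 1 to 8 when a library was left out: 1 without labelled knockout 2 or labelled wild type 1, 8 without labelled knockout 3 and 6 without labelled wild type 3. In the interaction 1 member passed, against 2 with a pseudocount of 1, 0 with no filter, 2 with median centring, 3 with robust moderation, and 1 to 3 when a female was left out. Over all genes, genotype label gave 2 calls, against 6 with no filter, median centring, quantile normalization or robust moderation, 4 in females only, and 1 to 4 when a library was left out. Sex gave 145, and 21 to 877 when a library was left out. The interaction gave 441, against 0 with no filter and 255 to 696 when a female was left out. Median centring moved the interaction's all-gene median from -0.13 to 0.09 and its calls from 122 higher and 319 lower to 348 and 313. The causes were not tested. None of the single-gene results recomputed changed sign, while median centring also moved the all-gene genotype median from -0.06 to 0.05 and its calls from 0 higher and 2 lower to 3 and 3. Without a male the interaction could not be fitted. Levels under 3 reads limit Clec2e, Clec2g, Clec2l and Clec4b1.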
